A study of Mus musculus with 16 samples.

Results

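A group of 10 genes of the neuromuscular junction and of the muscle's response to lost innervation were followed in calf muscle: Chrna1, Chrnb1, Chrnd, Chrne, Chrng, Musk, Dok7, Lrp4, Rapsn and Ncam1. They were chosen by name, as the subunits of the muscle acetylcholine receptor, the proteins that cluster it, and an adhesion molecule of denervated fibres. All 10 had 1 probe set with a single gene symbol, and all 10 passed the filter on dim signal, among 13601 genes tested. Each was measured with 1 expression array per mouse in the gastrocnemius of 16 male FVB/n mice aged 16 weeks. The HF KO group (8 mice, genotype Mx1-Cre+;FoxO1,3,4L/L, "FoxO1,3,4 knockdown" in the labels) carried loxP-flanked FoxO1, FoxO3 and FoxO4 alleles and Cre under the interferon-responsive Mx1 promoter. The HF WT group (8 mice, MxCre-;FoxO1,3,4L/L, "wild type" in the labels) was made up of littermates that carried the same flanked alleles without Cre, so it was wild type only in the sense of undeleted. Both groups ate a high-fat diet (58% fat, 25.5% carbohydrate, 16.4% protein) for the last 8 weeks, and polyinosine:cytidine was injected 3 times at 4 to 5 weeks of age to turn Cre on. The deletion is described as endothelial directed, yet the Mx1 promoter is not specific to endothelium, and Cre went with the KO group alone, so an effect of the recombinase itself and an effect of losing FoxO cannot be told apart.

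At the junction, acetylcholine released by the motor nerve opens a receptor in the fibre's membrane that is built of alpha, beta and delta subunits with an epsilon subunit in adult muscle or a gamma subunit in fetal and denervated muscle. The nerve's agrin binds LRP4, which switches on the kinase MuSK; DOK7 sits on MuSK inside the fibre, and rapsyn anchors the receptors in a dense cluster. When a muscle loses its nerve, myogenin and MyoD increase and drive Chrna1, Chrng, Musk and Ncam1 along the whole fibre, while FoxO factors are best known in muscle for their part in atrophy.

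The promoters of 3 subunit genes are shown because Chrna1 had the largest difference of the receptor genes, and Chrng and Chrne are the fetal and adult alternatives. RefSeq sequences (build GRCm38.p6) of 250 bases before to 50 bases after the gene's start were at hand for 6 of the 10 genes. Each is written on the gene's strand, at chr2:73580289-73580588 (minus strand) for Chrna1, chr1:87205561-87205860 (plus strand) for Chrng and chr11:70619145-70619444 (minus strand) for Chrne. Capitals mark E-boxes (CANNTG, the letters that myogenin and MyoD bind) and the N-box (CCGGAA, which the factor GABP binds in synaptic genes); both strands were searched.
Chrna1: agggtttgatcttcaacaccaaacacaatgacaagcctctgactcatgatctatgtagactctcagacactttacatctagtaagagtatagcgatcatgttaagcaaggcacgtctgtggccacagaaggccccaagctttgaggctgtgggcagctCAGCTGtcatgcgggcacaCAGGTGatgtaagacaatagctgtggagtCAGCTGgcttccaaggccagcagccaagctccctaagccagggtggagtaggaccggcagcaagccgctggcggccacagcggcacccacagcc
Chrng: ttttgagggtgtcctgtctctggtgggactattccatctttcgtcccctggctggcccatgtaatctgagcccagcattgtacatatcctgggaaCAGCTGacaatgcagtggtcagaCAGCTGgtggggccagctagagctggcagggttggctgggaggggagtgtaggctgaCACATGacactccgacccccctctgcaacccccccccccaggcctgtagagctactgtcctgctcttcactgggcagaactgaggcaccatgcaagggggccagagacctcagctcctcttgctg
Chrne: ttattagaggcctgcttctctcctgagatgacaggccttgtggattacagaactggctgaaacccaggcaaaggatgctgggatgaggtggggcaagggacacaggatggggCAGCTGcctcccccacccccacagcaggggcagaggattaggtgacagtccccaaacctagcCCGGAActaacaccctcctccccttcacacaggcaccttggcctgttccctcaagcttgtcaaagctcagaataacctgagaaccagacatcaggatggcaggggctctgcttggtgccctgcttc
The Chrna1 and Chrng windows each held 3 E-boxes, 2 of them of the form CAGCTG, and the Chrne window held 1 E-box, also CAGCTG, with 1 N-box at bases -76 to -71 from the start. CANNTG was found in 72.3% of all 32851 RefSeq windows of this length, CAGCTG, a form of it, in 16.3%, and CCGGAA in 14.9%. The FoxO letters GTAAACA, present in 3.65% of the windows on either strand, were in none of the 7 windows of the 6 genes. A match describes letters and shows no binding.

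None of the 10 genes passed the threshold between KO and WT mice. The count was 0 with limma at an adjusted p under 0.05, where 1.83% of all genes tested passed (249 of 13601). At an unadjusted limma p under 0.05 it was 1, Chrna1, against 17.3% of all genes. The groups overlapped for every one of the 10, as they did for all but 0.353% of genes. Differences (KO minus WT) ran from -0.30 log2 units for Chrna1 to 0.31 for Ncam1, 7 below 0 and 3 above, with a median of -0.05 against 0.00 over all genes. Without regard to sign, the median difference was 0.16 for the 10 genes against 0.09 over all genes. The 95% intervals of the 10 differences lay between -0.52 and 0.63, which as folds is 0.699 to 1.55. In data simulated with the spread of all genes tested, the test recovered 78 of 100 genes changed by 0.5 log2 units and 98 of 100 changed by 1. Those genes were drawn at random from all genes tested. The median SD within groups was 0.22 for the 10 genes against 0.18 over all genes, so these shares cannot be carried over to the 10.

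**Figure D1:**
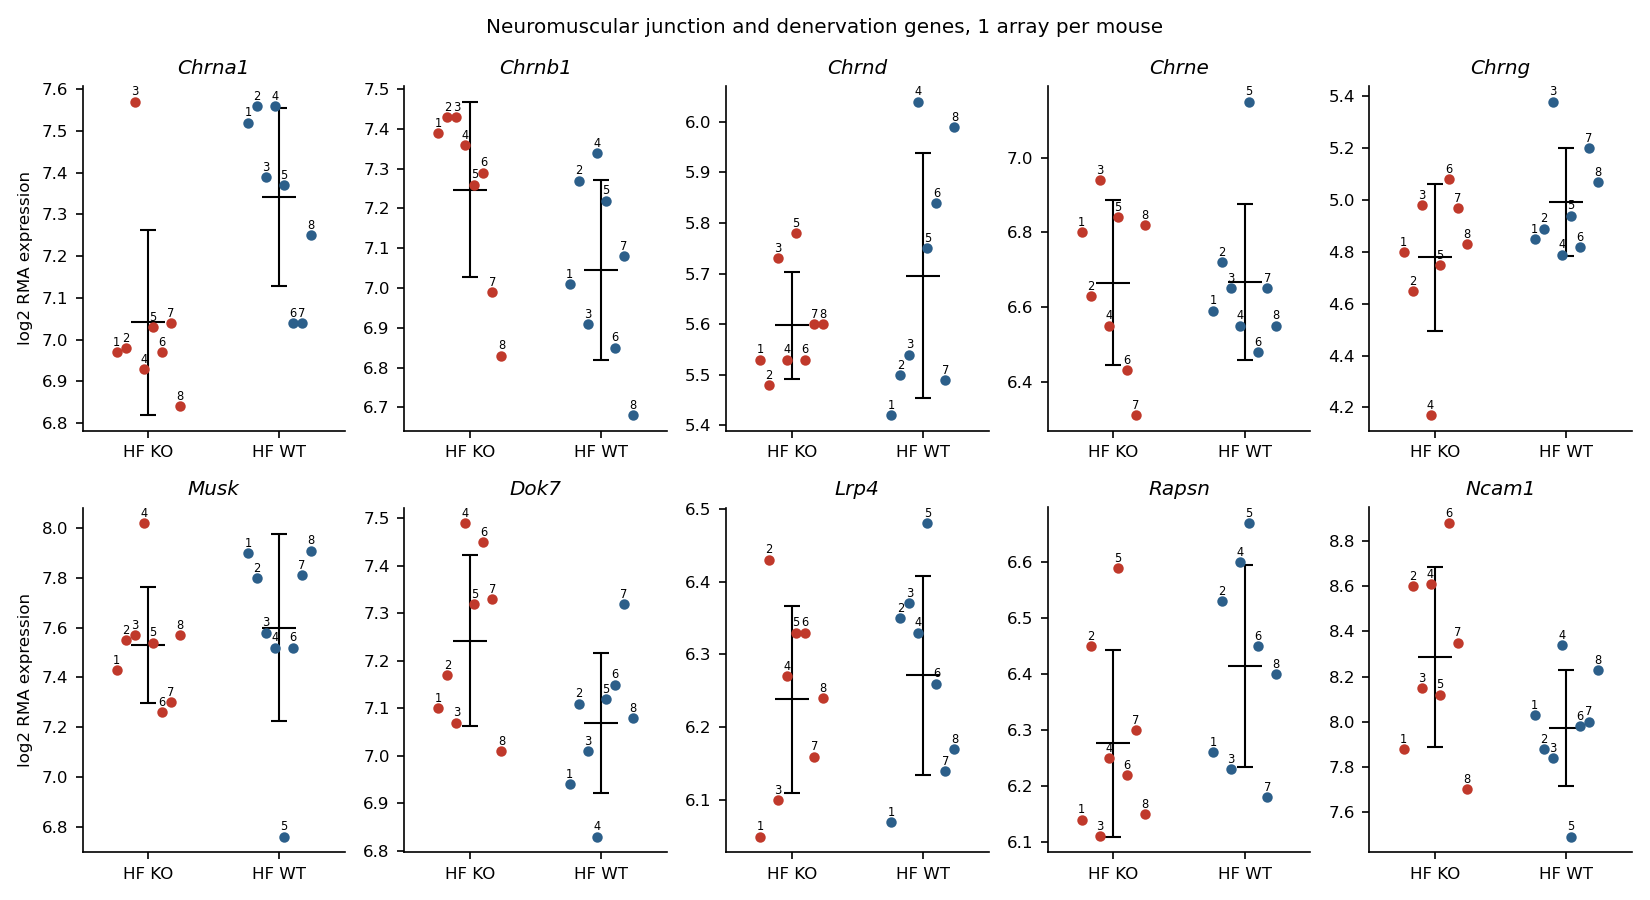
Log2 RMA expression (vertical axis, scale of its own in each panel) of the 10 genes in the 8 HF KO mice (red, left) and the 8 HF WT mice (blue, right). Numbers are mouse numbers, and bars show the mean ± SD. For Chrna1, KO mouse 3 at 7.57 stands above all other KO mice, of which the highest is at 7.04.

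**Figure D2:**
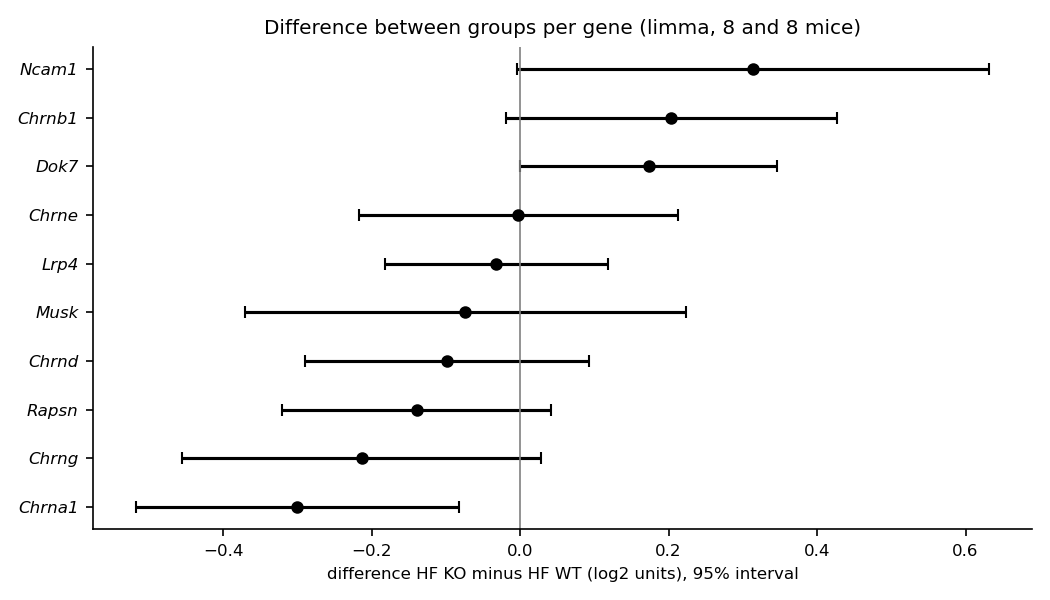
Difference HF KO minus HF WT in log2 units (horizontal axis) for the 10 genes, with 95% intervals from limma. The interval for Chrna1, -0.52 to -0.08, is the only one of the 10 that leaves out 0, before adjustment for the number of genes tested.

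Chrna1 (probe set 17386557, chromosome 2) encodes the alpha subunit, which carries the acetylcholine binding site. It read 6.97, 6.98, 7.57, 6.93, 7.03, 6.97, 7.04 and 6.84 log2 units in KO mice 1 to 8, against 7.52, 7.56, 7.39, 7.56, 7.37, 7.04, 7.04 and 7.25 in WT mice 1 to 8. Thus 7 KO mice lay below every WT mouse, the highest of them by only 0.0030, while KO mouse 3 lay above every WT mouse. The means were 7.04 ± 0.22 in KO mice and 7.34 ± 0.21 in WT mice (SD, n = 8 each). The difference of -0.30 (SE 0.10, 95% interval -0.52 to -0.08) is a fold of 0.812. Its limma p was 0.149 after adjustment, which did not pass, and the exact permutation test of this gene alone gave an unadjusted p of 0.0183. Without KO mouse 3 it was -0.38 and passed (limma adjusted p = 0.0362). In the other 15 fits that each left out 1 mouse it did not pass, with differences between -0.34 and -0.27.

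The beta subunit gene Chrnb1 (chromosome 11) had the opposite sign. It measured 7.39, 7.43, 7.43, 7.36, 7.26, 7.29, 6.99 and 6.83 in the KO mice, against 7.01, 7.27, 6.91, 7.34, 7.22, 6.85, 7.08 and 6.68 in the WT mice. In all, 4 KO mice were above every WT mouse, and KO mice 7 and 8 were below the WT mean. The difference was 0.20 (SE 0.11, limma adjusted p = 0.330), with means of 7.25 ± 0.22 in KO mice and 7.05 ± 0.23 in WT mice (SD, n = 8 each). Alpha and beta are parts of the same receptor, and here their group differences had opposite signs, although within the groups their values leaned together without passing (Pearson r = 0.49, permutation p adjusted over 45 pairs = 0.617, n = 16 mice).

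The delta subunit gene Chrnd and the fetal gamma subunit gene Chrng lie next to each other on chromosome 1. Chrnd read 5.60 ± 0.11 in KO mice and 5.70 ± 0.24 in WT mice, a difference of -0.10 (SE 0.09, limma adjusted p = 0.616), and all 8 KO mice, between 5.48 and 5.78, lay inside the WT range of 5.42 to 6.04. The Chrnd difference was -0.05 without WT mouse 4, -0.06 without WT mouse 8 and -0.03 with a list of Schwann cell genes as a covariate. Chrng read 4.80, 4.65, 4.98, 4.17, 4.75, 5.08, 4.97 and 4.83 in the KO mice, against 4.85, 4.89, 5.38, 4.79, 4.94, 4.82, 5.20 and 5.07 in the WT mice. Here 3 KO mice were below every WT mouse, and KO mouse 4 was the lowest of all. The difference of -0.21 (SE 0.12, 95% interval -0.45 to 0.03) did not pass (limma adjusted p = 0.347), and it was -0.13 without KO mouse 4. These levels were close to the array medians of 4.43 to 4.61, and 15 of 16 mice lay above their own median, so the fetal subunit was measured near the dim end, where array differences are compressed.

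The adult epsilon subunit gene Chrne (chromosome 11) did not separate the groups. It read 6.80, 6.63, 6.94, 6.55, 6.84, 6.43, 6.31 and 6.82 in KO mice, against 6.59, 6.72, 6.65, 6.55, 7.15, 6.48, 6.65 and 6.55 in WT mice. The means of 6.67 ± 0.22 in KO mice and 6.67 ± 0.21 in WT mice (SD, n = 8 each) differed by -0.0024 (SE 0.10, 95% interval -0.22 to 0.21, limma adjusted p = 0.993). WT mouse 5 was highest at 7.15 and KO mouse 7 lowest at 6.31.

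Of the agrin pathway, Musk (chromosome 4), the receptor kinase, read 7.43, 7.55, 7.57, 8.02, 7.54, 7.26, 7.30 and 7.57 in KO mice, against 7.90, 7.80, 7.58, 7.52, 6.76, 7.52, 7.81 and 7.91 in WT mice. KO mouse 4 was above and WT mouse 5 below all other mice. The difference of -0.07 (SE 0.14, limma adjusted p = 0.836) did not pass without any 1 mouse either and ran from -0.19 without WT mouse 5 to -0.03 without WT mouse 8. It moved by over 1.5 times without KO mouse 4, 6 or 7 or WT mouse 1, 2, 5, 7 or 8. Dok7 (chromosome 5), the activator of MuSK, read 7.10, 7.17, 7.07, 7.49, 7.32, 7.45, 7.33 and 7.01 in KO mice, against 6.94, 7.11, 7.01, 6.83, 7.12, 7.15, 7.32 and 7.08 in WT mice. Here 3 KO mice were above every WT mouse and 3 WT mice below every KO mouse. The difference was 0.17 (SE 0.08, 95% interval -0.00057 to 0.35, limma adjusted p = 0.290). It was 0.04 (SE 0.09) without 5 mice with high Schwann cell transcripts, among them KO mice 4, 6 and 7, the highest KO mice for Dok7.

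Lrp4, the agrin receptor, and Rapsn, the clustering protein, lie on chromosome 2 and showed small negative differences. Lrp4 averaged 6.24 ± 0.13 in KO mice and 6.27 ± 0.14 in WT mice, a difference of -0.03 (SE 0.07, 95% interval -0.18 to 0.12, limma adjusted p = 0.864), the narrowest interval of the 10. Rapsn averaged 6.28 ± 0.17 in KO mice and 6.41 ± 0.18 in WT mice, a difference of -0.14 (SE 0.09, limma adjusted p = 0.420). The 3 lowest Rapsn values belonged to KO mice 1, 3 and 8, at 6.14, 6.11 and 6.15.

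Ncam1 (chromosome 9) had the largest positive difference. It encodes an adhesion molecule that innervated adult fibres carry mainly at the junction and that satellite cells and Schwann cells also make. It read 7.88, 8.60, 8.15, 8.61, 8.12, 8.88, 8.35 and 7.70 in KO mice, against 8.03, 7.88, 7.84, 8.34, 7.49, 7.98, 8.00 and 8.23 in WT mice. KO mice 2, 4, 6 and 7 were above every WT mouse. The means were 8.29 ± 0.40 in KO mice and 7.97 ± 0.26 in WT mice (SD, n = 8 each), and the difference of 0.31 (SE 0.15, 95% interval -0.0042 to 0.63) did not pass (limma adjusted p = 0.295). A further probe set with a pair of symbols, 1 of them Ncam1, was not used.

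The same KO mice, 2, 4, 6 and 7, also held high Schwann cell transcripts. The mean of 13 Schwann cell and nerve genes was 6.38, 6.45, 6.50 and 6.43 in them, and between 5.41 and 5.75 in the other KO mice. WT mouse 1 stood at 6.43, and the other WT mice between 5.26 and 5.65. In whole muscle, more cells of a type and more RNA per cell cannot be told apart. None of the 13 genes passed the threshold, beside 1.83% of all genes. An unadjusted limma p under 0.05 was found for 3 of the 13, beside 17.3% of all genes. These are too few genes to read against those shares. Pmp22, a myelin protein gene, differed by 1.03 (SE 0.33), Mal by 1.12 (SE 0.48) and Drp2, of myelinating Schwann cells, by 0.85 (SE 0.39). Ncam1 averaged 8.61 ± 0.21 in the 4 KO mice with high Schwann cell transcripts and 7.96 ± 0.22 in the other 4 KO mice, against 7.97 ± 0.28 in the 7 WT mice with low ones. With the list mean as a covariate the Ncam1 difference was 0.13 (SE 0.14, limma adjusted p = 0.790). WT mouse 1 had high Schwann cell transcripts and an Ncam1 level of 8.03, inside the range of the other WT mice. Axon and neuron genes were not high in all of these KO mice. Their list mean was 4.84, 4.89, 5.26 and 5.20 in KO mice 2, 4, 6 and 7, and 4.99 to 5.09 in the other KO mice. By group it was 5.05 ± 0.14 in KO mice and 5.12 ± 0.13 in WT mice. Of 6 genes tested from a list of 11, 0 passed, and 3 had an unadjusted limma p under 0.05. These too are few genes to read against the shares of 1.83% and 17.3%. Prph differed by -0.27 (SE 0.11), Nefh by -0.21 (SE 0.09) and Uchl1 by 0.29 (SE 0.13).

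Satellite cell genes, the other cells that make Ncam1, gave no common direction. Of 10 tested, 1 passed, beside 1.83% of all genes, and 10 are too few genes to read against that share. The gene that passed was Vcam1, at 0.79 (SE 0.12, limma adjusted p = 0.00406), which activated endothelium also makes. Cd34, likewise shared with endothelium, differed by 0.38 (SE 0.11) and Chodl by -0.31 (SE 0.08), both without passing. The defining factors Pax7 and Myf5 differed by -0.14 (SE 0.11) and -0.17 (SE 0.10). The list mean was 6.37 ± 0.07 in KO mice and 6.32 ± 0.09 in WT mice (SD, n = 8 each).

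Chrne and Ncam1 ran against each other from mouse to mouse. After subtraction of each group's mean, Pearson's r over 16 mice was -0.73 (permutation p = 0.00144). Adjusted over 45 pairs of the 10 genes, this permutation p was 0.0648, which did not pass. Spearman's rho was -0.82 (permutation p = 2.00e-04, adjusted = 0.00900), which passed. Without the 2 mice farthest from the median of Ncam1, r was -0.71. The next pair, Lrp4 with Rapsn, had r = 0.68 (permutation p adjusted = 0.109) and rho = 0.59 (adjusted = 0.347), which did not pass. Of the 45 pairs, 25 had a positive r. The tests of these pairs were not among those set out beforehand, so their p values are descriptions.

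Slow fibre transcripts differed between mice, and Chrne ran against them. The mean of 8 genes of slow fibres, among them Myh7 and Tnnt1, ran from 7.25 to 9.15 in KO mice and from 5.75 to 8.56 in WT mice, with WT mouse 5 lowest at 5.75. In that mouse Chrne was highest of the 16 and Musk and Ncam1 lowest. The relation to this list was added after the data were seen, so its p values are descriptions. For Chrne and this list the relation was negative (r = -0.85, permutation p = 5.00e-05, adjusted over 10 genes = 5.00e-04), and r was -0.64 without the 2 mice farthest from the list's median. By rank the relation did not pass (rho = -0.65, permutation p = 0.00866, adjusted = 0.0772). For Ncam1 r was 0.58 (adjusted p = 0.0937) and rho 0.61 (adjusted p = 0.0772), and without 2 mice r was 0.46. For Musk r was 0.46 (adjusted p = 0.280), and it turned to -0.33 without the 2 farthest mice, so it rested on them. The slow fibre list mean overlapped between the groups, at 8.11 ± 0.58 in KO mice and 7.84 ± 0.88 in WT mice. Of its 8 genes, 0 passed with limma, too few genes to read against 1.83% of all genes. With the list as a covariate the Chrne difference was 0.06 (SE 0.07) and the Chrna1 difference -0.29 (SE 0.11, limma adjusted p = 0.199).

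**Figure D3:**
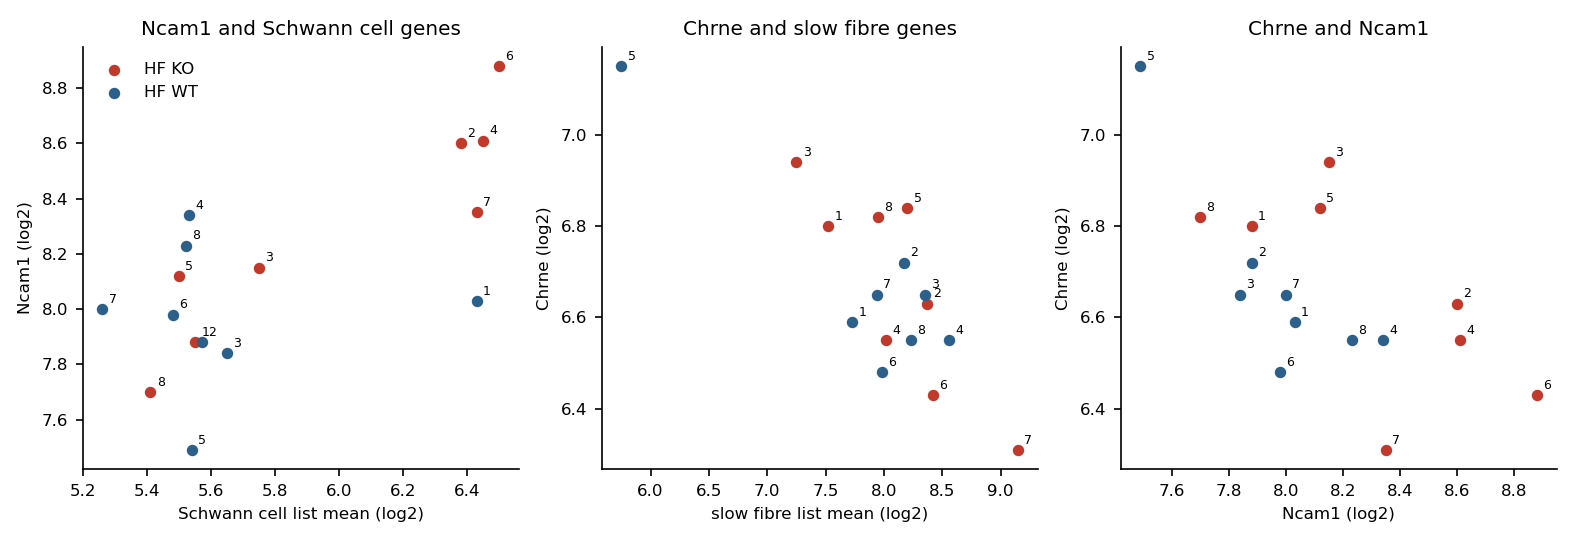
Per mouse (numbers), from left to right: Ncam1 against the mean of the Schwann cell list, Chrne against the mean of the slow fibre list, and Chrne against Ncam1, all in log2 units, with HF KO mice in red and HF WT mice in blue. KO mice 2, 4, 6 and 7 sit at the top right for Ncam1 and Schwann cell genes, and WT mouse 5 is alone at the low end of the slow fibre list (5.75), with the highest Chrne (7.15).

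The genes whose pattern over the 16 mice was most like each of the 10, after subtraction of group means, were picked as the 3 highest of all genes tested, so their r values are descriptions. Chrna1 was most like Cd209g, a C-type lectin gene (r = 0.89), Tnnt2, the troponin T of embryonic and heart muscle (r = 0.87), and Plxnb2, a semaphorin receptor (r = 0.85). Tnnt2 read 7.21 in KO mouse 3 and between 6.02 and 6.45 in the other KO mice, against 6.11 to 7.16 in WT mice, and Cd209g read 7.29 in KO mouse 3 and at most 5.95 in any other KO mouse. Macrophage genes were also highest in KO mouse 3, with a list mean of 7.63 against 6.36 to 7.38 in the other KO mice and 6.06 to 6.77 in WT mice. The fibroblast list mean was highest there too, at 9.77 against at most 9.68 in any other mouse. Among KO mice, KO mouse 3 had the highest fast fibre list mean (12.83) and the lowest slow fibre list mean (7.25). The part of these lists in the Chrna1 value was not tested. Chrne was most like Clcn1, the chloride channel of skeletal muscle (r = 0.92). For Lrp4 the nearest were Stoml2 (r = 0.89) and Psmc2 (r = 0.88), for Rapsn Ecsit (r = 0.90) and Gba2 (r = 0.90), for Chrnb1 Mlkl (r = 0.89), for Chrng Cartpt (r = 0.91), for Ncam1 Itga2b (r = 0.86), for Dok7 Hbq1a (r = 0.83), for Chrnd Ccnyl1 (r = 0.83) and for Musk Slc15a5 (r = 0.82).

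The regulators of the denervation response were counted near the share of all genes. Of 38 genes tested from a list of 42, 0 passed with limma, beside 1.83% of all genes, and 6 had an unadjusted p under 0.05, beside 17.3% of all genes, so neither count sets the list apart. Of the differences, 19 were positive and 19 negative, and the median was -0.0038 against 0.00 over all genes. Myod1, the myogenic factor MyoD, read 6.24, 6.14, 6.31, 6.54, 6.68, 6.33, 6.10 and 6.25 in KO mice, against 6.71, 6.66, 6.79, 6.43, 6.93, 6.40, 6.43 and 6.42 in WT mice. Of the KO mice, 6 were below every WT mouse, and the difference was -0.27 (SE 0.10, limma adjusted p = 0.161). Myog, myogenin, read 5.54, 5.63, 6.03, 5.96, 5.86, 6.18, 6.02 and 5.63 in KO mice, against 6.04, 6.00, 6.19, 6.13, 6.08, 6.27, 6.24 and 5.74 in WT mice, a difference of -0.23 (SE 0.10, limma adjusted p = 0.236). KO mouse 3, high for Chrna1, was not above the WT range for either factor. Myog was named after its values were seen. The ubiquitin ligase gene Trim63 (MuRF1), a known FoxO target, differed by -0.29 (SE 0.11, limma adjusted p = 0.192) and Fbxo31 by -0.24 (SE 0.10), while Myf6 (0.20, SE 0.09), the deubiquitinase gene Uchl1 (0.29, SE 0.13) and the coactivator gene Ppargc1a (0.25, SE 0.16) had positive differences.

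**Figure D4:**
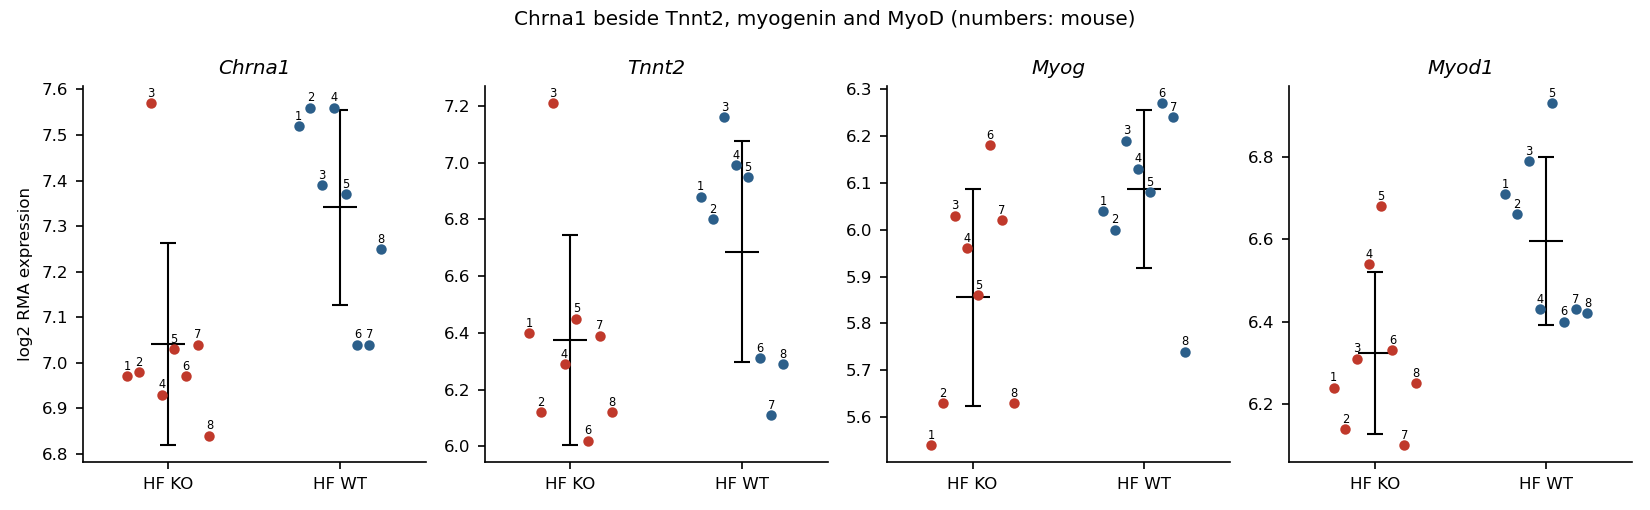
Log2 RMA expression (vertical axis, scale of its own in each panel) of Chrna1, Tnnt2, Myog and Myod1 in the 8 HF KO mice (red, left) and the 8 HF WT mice (blue, right), with mouse numbers and mean ± SD. KO mouse 3 is the highest KO mouse for Chrna1 (7.57) and Tnnt2 (7.21) but not for Myog (6.03) or Myod1 (6.31).

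Among the wider set of junction genes, a few parts of the scaffold and of the basal lamina rose. Of 43 genes tested from a list of 52, 4 were higher in KO mice and 0 lower, beside 1.53% of all genes higher and 0.301% lower, and the median difference was 0.08. Sntb2, a syntrophin that binds utrophin, rose by 0.52 (SE 0.12, limma adjusted p = 0.0349), with 7.60, 7.53, 7.27, 7.06, 7.00, 7.36, 6.99 and 6.82 in KO mice, against 6.53, 6.75, 6.88, 6.92, 6.67, 6.65, 6.21 and 6.89 in WT mice. Lama5, a laminin chain, rose by 0.24 (SE 0.06, limma adjusted p = 0.0384), with every KO mouse (6.09 to 6.33) above every WT mouse (5.81 to 6.06). Macf1, a cytoskeletal linker, rose by 0.32 (SE 0.08, limma adjusted p = 0.0463) and Hspg2, the heparan sulfate proteoglycan perlecan that anchors acetylcholinesterase, by 0.43 (SE 0.11, limma adjusted p = 0.0482). All 4 calls were lost with the replicate number as a block and with the Schwann cell, slow fibre or liver list as a covariate. The count was 0 when any 1 of KO mice 1, 2 and 6 or WT mice 2, 5, 6 and 7 was left out, 1 or 2 without KO mouse 4, 5 or 7 or WT mouse 1, 3 or 8, and 9 without KO mouse 8. Utrn, the utrophin of the junction, and Agrn, agrin, were named with Hspg2 after their values were seen and did not pass, at 0.44 (SE 0.11, limma adjusted p = 0.05002) and 0.27 (SE 0.08, limma adjusted p = 0.0938). Bche (-0.22, SE 0.08), Etv5 (-0.18, SE 0.09) and Dmd, dystrophin (-0.13, SE 0.09), had the negative differences with the smallest p and did not pass. Vessel walls also contain Lama5 and Hspg2, and endothelial genes were higher in these KO mice, 7 of 13 past the threshold, with a list mean of 7.33 to 7.88 in KO mice and 7.12 to 7.49 in WT mice; their part in the scaffold values was not tested.

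Receptor assembly genes, neuronal acetylcholine receptor subunits and the calcium release machinery gave 0 calls of 9 tested from a list of 20 (limma; 0 at an unadjusted p under 0.05), beside 1.83% and 17.3% of all genes. All 9 differences were negative, with a median of -0.09, from -0.18 for Chrna4 to -0.03 for the ryanodine receptor gene Ryr1. The list mean was 6.70 ± 0.07 in KO mice and 6.80 ± 0.05 in WT mice (SD, n = 8 each), with all 8 KO mice below the WT mean and 5 below every WT mouse; it was not tested as a score. Of 9 genes that define myofibres, such as Acta1 and Ckm, 0 passed with limma (0 at an unadjusted p under 0.05), too few genes to read against 1.83% of all genes, and they lay near the top of the array's scale. Their list mean was 12.58 ± 0.06 in KO mice and 12.57 ± 0.05 in WT mice (SD, n = 8 each).

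**Figure D5:**
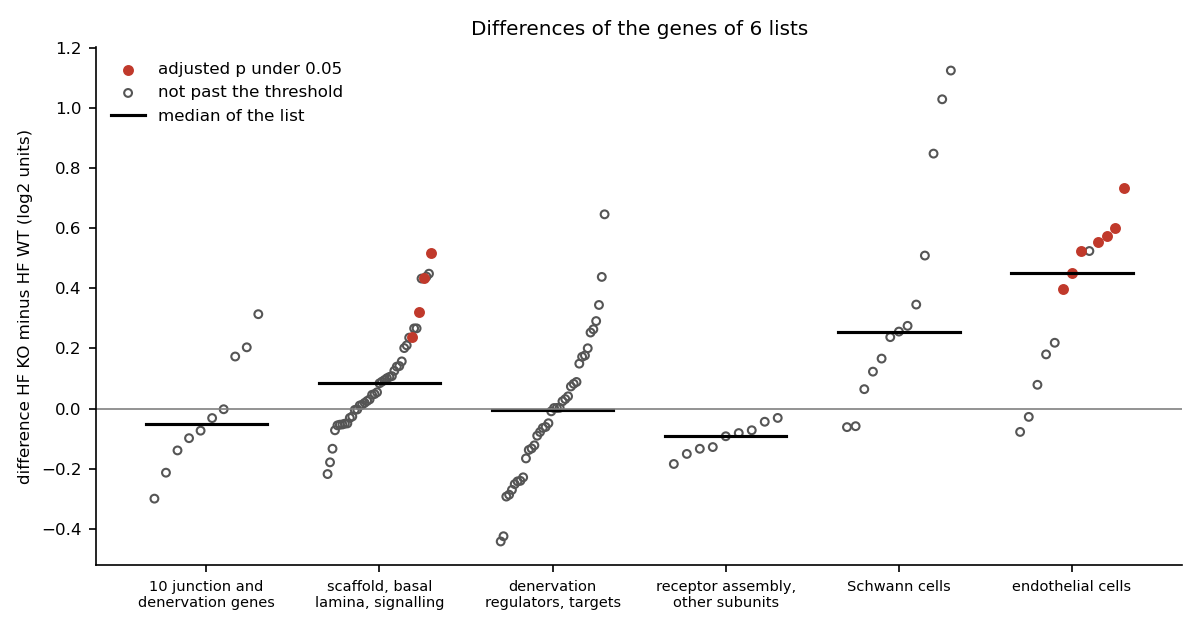
Difference HF KO minus HF WT in log2 units (vertical axis) of each gene tested in 6 lists, ordered by size within a list, with the list median as a bar. Filled red points passed a limma adjusted p of 0.05: 0 of the 10 junction and denervation genes, 4 of 43 scaffold genes and 7 of 13 endothelial genes.

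The targeted transcripts were not shown to be reduced in whole muscle, since Foxo1, Foxo3 and Foxo4 differed by 0.07 (SE 0.12), 0.50 (SE 0.14) and -0.24 (SE 0.10) with none past the threshold, and whether their probes lie in the deleted part was not analysed here. Correlations between arrays ran from 0.958 to 0.982. Liver transcripts, which muscle does not make in quantity, varied widely, with Alb above 10 log2 units in 4 KO mice (1, 2, 4 and 5) and 2 WT mice (2 and 7). Without these 6 mice the differences were -0.25 for Chrna1, 0.29 for Ncam1, -0.01 for Chrng, 0.14 for Chrnb1 and -0.24 for Rapsn (limma adjusted p = 0.382), and none of the 10 genes passed.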

How the data were processed

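RNA of 16 gastrocnemius muscles was measured with 1 array per mouse, from 250 ng of total RNA per the labels' protocols. The authors deposited log2 values for each probe set, and RMA and oligo are named in the submitters' processing notes. That the scale is log2 follows from RMA and the range (0.33 to 13.84). For versions, build and scan dates the sources used here give nothing. Because RMA makes distributions alike between arrays, a global shift in RNA content is hidden, and precision is set by the number of mice. Some offset between arrays remained. Medians over all probe sets ran from 4.43 to 4.61, with means of 4.54 in KO mice and 4.55 in WT mice. In 1 alternative, each array was centred on another median, that of the 13601 genes tested. This moved the Chrna1 difference from -0.30 to -0.35 and the number of all genes past the threshold from 249 to 193.

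GEO's platform annotation gives 1 symbol to 23521 of the 41345 probe sets, several symbols to 1814 and no symbol to 16010. For each gene the brightest single-symbol probe set was kept where its signal exceeded the median of the array in 8 or more of 16 mice, which left 13601 genes. Groups came from the titles and were compared by limma 3.58.1 (lmFit, eBayes; R 4.3.3) without covariates, in two-sided tests with Benjamini-Hochberg adjustment over all genes tested and a threshold of 0.05. Intervals are 95% intervals. Exact permutation tests were two-sided over all splits of 8 against 8 mice, the smallest possible p being 1.55e-04. Correlations over 16 mice used random permutations of values after subtraction of group means. The procedure was tested on simulated data (13601 genes, 200 changed, 2 false calls). The simulated noise was independent between genes, without variation that the genes of a mouse share. The false calls therefore do not give the error rate in these data.

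The 10 genes and the gene lists were chosen with earlier results of these data known. Named were the 10 genes, Foxo1, Foxo3 and Foxo4, up to 3 genes per list and direction with the smallest p, and the 3 genes most alike to each of the 10; other names were chosen after their values were seen. Genes of a list that lacked such a probe set or did not reach the filter were not tested (among Schwann cell markers, Mag and S100b were under the filter). Alternatives were other filters, normalizations, probe set rules, variance models, array weights, covariates, thresholds, the replicate number as a block and leaving out each mouse. Added after the data were seen were leaving out mice with a high Schwann cell list (over 6) or high Alb (over 10) and the relation to the slow fibre list. The correlations between pairs of the 10 genes were also not among the tests set out beforehand. Deviations of same-numbered mice from their group means correlated between -0.08 and 0.25. Only for KO mouse 8 was the WT mouse most alike the one of the same number. These values are too few to exclude a shared litter or batch. The 8 mice of a group are called separate biological replicates.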

Additional observations from a re-analysis of the deposited data

Results flagged for a closer look

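Single mice stood apart from the rest of their group in 8 of 40 groups examined (the 10 genes and 10 marker lists in each genotype), by a gap to the nearest mouse that was a large share of the group's range. For independent groups of normally distributed values, chance gives about 1 in 20. The groups here hold the same 16 mice throughout, and KO mouse 4 and WT mouse 5 recur among those flagged. The count therefore cannot be read directly against 1 in 20. Chrna1 was highest in KO mouse 3, at 7.57 against 7.04 in the next KO mouse. Musk was highest in KO mouse 4, at 8.02 against 7.57 in the next, and Chrng was lowest in the same mouse, at 4.17 against 4.65. In WT mouse 5 Chrne was highest (7.15, next 6.72), Musk lowest (6.76, next 7.52) and the slow fibre list mean lowest (5.75, next 7.73). The Schwann cell list mean was highest in WT mouse 1 (6.43, next 5.65), and the satellite cell list mean was highest in WT mouse 4 (6.52, next 6.36).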

How the results depend on the processing

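The number of the 10 genes past the threshold was 0 in limma and under every other filter, normalization, probe set rule, variance model, weighting, covariate and threshold tried, and under both added choices of mice. With the replicate block it was also 0, and the scaffold list had 0 calls with the block and 4 without it. Over the 16 fits without 1 mouse the number was 0 to 1, the 1 being Chrna1 without KO mouse 3, and the unadjusted exact permutation test gave 1, again Chrna1. Chrna1, Chrnb1, Chrnd, Chrng, Musk, Dok7, Lrp4 and Rapsn kept their sign in all alternatives run. Chrne, near 0, turned positive with the Schwann cell list (0.10) or the slow fibre list (0.064) as a covariate and without the mice with a high Schwann cell list (0.17), and ran from -0.042 to 0.066 over the fits without 1 mouse; Ncam1 turned to -0.0025 without the mice with a high Schwann cell list, a choice made after the data were seen that takes out exactly the 4 KO mice above every WT mouse for Ncam1, so that a smaller difference follows from it. Chrnd and Chrng were not tested with the 75th percentile filter, which they do not pass. Over all genes the number past the threshold was 249. It was 137 with no filter, 36, 149 and 137 with the Schwann cell, slow fibre and liver lists as covariates, 505 at an adjusted p under 0.10, 107 to 680 without 1 mouse (680 without KO mouse 8), and 16 and 7 without the mice with high Schwann cell transcripts or high Alb, fits that hold fewer mice. The 4 scaffold genes past the threshold became 1 with arrays centred or quantile normalized again, 0 with no filter, 7 with array weights and 8 at an adjusted p under 0.10. Signal near the array median limits what can be said of Chrng.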
